A study of Mus musculus with 4 samples.

Results

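Amino acid transporter genes were examined in a mouse erythroid cell line that lacks the ubiquitin ligase subunit Wdr26. The genes were taken by symbol from the solute carrier families SLC1, SLC3, SLC6, SLC7, SLC36, SLC38 and SLC43, which gave 53 of the 17393 genes in the deposited table. Of these, 51 are carrier genes: 6 in SLC1, 2 in SLC3, 15 in SLC6, 13 in SLC7, 3 in SLC36, 9 in SLC38 and 3 in SLC43. The other 2, Slc7a6os and Slc36a1os, are neighbours named for an adjacent carrier and encode no known carrier, and they are left out of the counts below.

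The samples were 2 libraries of Wdr26-/- (knockout) cells and 2 libraries of wild type cells, all of the mouse erythroleukemia line DS19. These are erythroid precursors transformed by Friend virus, and dimethyl sulfoxide drives them toward a red cell-like state. The culture description names 1.5% dimethyl sulfoxide, but the labels leave it unsaid for the cells that were sequenced, and they do not say whether the knockout cells were 1 clone. Both genotypes were grown in serum-containing medium with added glutamine and non-essential amino acids. Expression is given as FPKM, which scales fragments to transcript length and to sequencing depth.

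Cells take up amino acids through carriers that differ in substrate and in what drives them. Some use the sodium gradient to accumulate amino acids, some swap one amino acid for another, and some let amino acids flow down their gradient. Several SLC7 carriers work only as light chains bound to an SLC3 heavy chain, which brings them to the cell surface. Developing red cells need glycine in bulk for heme as well as amino acids for globin. Carriers on the lysosome export amino acids and take part in the sensing that controls the growth kinase complex mTORC1.

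The knockout showed in the libraries: Wdr26 stood at 9 and 7.84 FPKM in knockout and at 55.4 and 52.4 FPKM in wild type. Steps in the low values corresponded to roughly 20400000 to 20600000 fragments in knockout and 20600000 to 21800000 in wild type, an estimate that moves with the effective transcript length assumed. All 10 erythroid markers were detected, with a summed level of 153799 and 179264 FPKM in knockout and 169424 and 208138 FPKM in wild type. Most of that sum is globin; of the 10, 6 were lower in both knockout libraries (Alas2, Klf1, Epor, Tfrc, Ahsp and Slc4a1), beside 10.8% of all genes, and none passed the test. T cell, granulocyte and macrophage, epithelial and fibroblast markers summed to at most 1.04 FPKM per list and library, with Cd3e, Elane and Epcam listed at 0. The 3 megakaryocyte markers were present, at sums of 272 and 284 FPKM in knockout and 246 and 301 FPKM in wild type. The neuron and glia list summed to 4.32 to 7.11 FPKM, from Tubb3 and Gfap.

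About as many of the measured carrier genes reached 1 FPKM as stayed below it. Of the 51 carrier genes, 24 reached 1 FPKM in every library and were tested, and 27 stayed below 1 FPKM in every library. Slc38a5, a sodium-coupled carrier of glutamine and other neutral amino acids, was the most abundant, above 98.1% of all genes tested. It made up 30.5% and 34.4% of the summed carrier FPKM in knockout and 26.4% and 32.3% in wild type. With Slc43a3 and Slc43a1, 2 facilitated carriers, it accounted for 56.7% and 58.5% of the sum in knockout and 55.8% and 59.1% in wild type. The summed carrier level overlapped between genotypes, at 1019.4 and 879.5 FPKM in knockout and 969.6 and 886.4 FPKM in wild type.

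**Figure D1:**
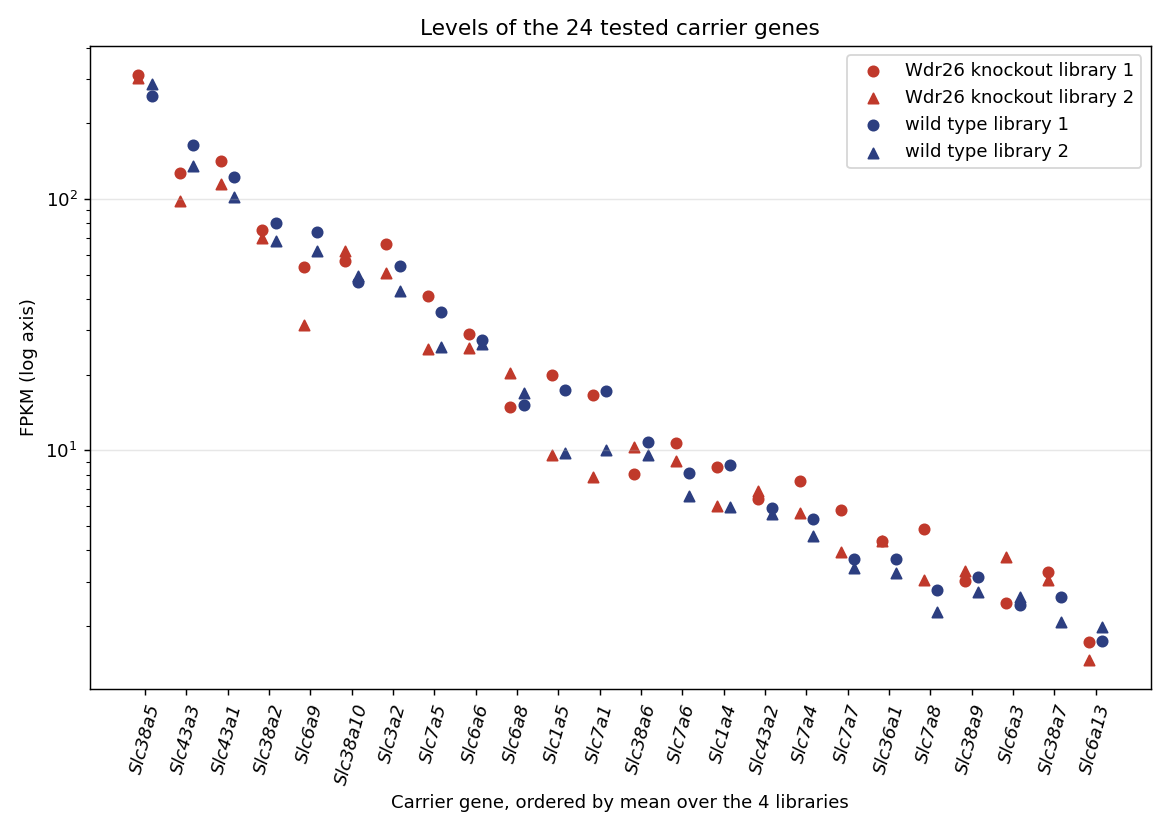
FPKM on a log axis for the 24 tested carrier genes in each of the 4 libraries, ordered by their mean, with knockout points left of wild-type points and the library number shown by the marker. Slc38a5 stands highest at 256 to 311 FPKM, Slc6a9 is lower in both knockout libraries, and the triangles of Slc1a5 and Slc7a1 lie well under the circles in both genotypes.

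No carrier passed the test between genotypes (limma on log2(FPKM + 1), Benjamini-Hochberg adjusted p under 0.05 over all 10670 genes tested), while 0.0937% of all genes did. At an unadjusted p under 0.05 there was 1 carrier of 24, Slc6a9, against 11.4% of all genes. For 9 of the 24, each knockout library exceeded each wild-type library, beside 29.9% of all genes tested. For 3 of the 24 the reverse held, beside 10.8%. With values centred on each library's median, a count added after the data had been seen, these numbers were 8 and 5, beside 19.9% and 20.1% of all genes. The median log2 difference, knockout minus wild type, was 0.15 over the 24 carriers and 0.07 over all genes tested. With 2 libraries a genotype the smallest p of a two-sided exact permutation test is 0.333, so none was run. The labels do not name separate cultures for the libraries numbered 1 and 2, and p-values reflect only how far these samples spread, perhaps for technical reasons. In bulk RNA, fewer cells with a transcript and less of it per cell cannot be told apart.

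**Figure D2:**
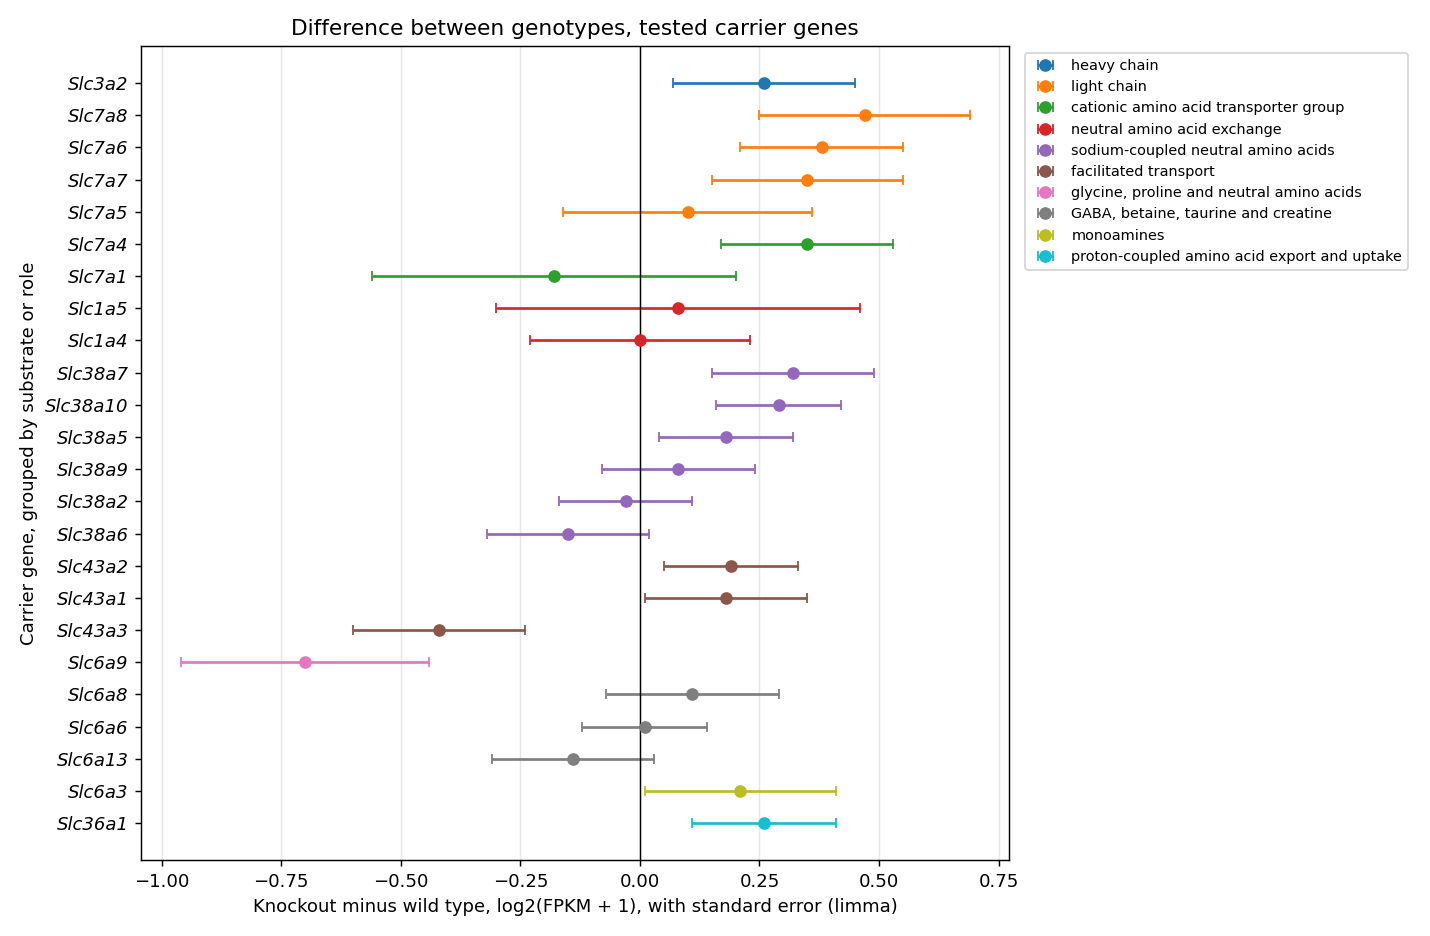
Knockout minus wild type on the log2(FPKM + 1) scale for the 24 tested carrier genes, with the standard error from limma (2 libraries a genotype), grouped and coloured by substrate or role. Slc6a9 lies lowest at −0.70 and Slc7a8 highest at 0.47, and none passed the test over all genes.

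The glycine carrier had the largest log2 difference of the 24. Slc6a9 (gene ID 14664, chromosome 4, 117835258 to 117869305, GRCm38/mm10) encodes GlyT1, the sodium- and chloride-driven glycine carrier, which in the mouse supplies glycine for heme synthesis in erythroid cells. It stood at 53.6 and 31.6 FPKM in knockout and at 73.8 and 61.8 FPKM in wild type. Both knockout libraries were below both wild-type libraries, and knockout library 2 was far below the other 3. It averaged 42.6 ± 15.6 FPKM in knockout and 67.8 ± 8.46 FPKM in wild type (SD, n = 2 each), a ratio of 0.628. The log2 difference was −0.70 with a 95% interval of −1.32 to −0.08 before adjustment, and the adjusted p in limma was 0.391. The size rests on knockout library 2: without it the difference was −0.33 (limma adjusted p = 0.533), and without knockout library 1 it was −1.07 (limma adjusted p = 4.76e-06), in a comparison that called 738 of all genes. Across the fits with 1 library left out, the adjusted p of Slc6a9 ran between 4.76e-06 and 1, and across the scalings, filters, trend and pseudocount between 0.386 and 0.605. Alas2, the erythroid enzyme that joins glycine to succinyl-CoA, was also lower in both knockout libraries, at 2830 and 3136 FPKM against 3721 and 4123 FPKM in wild type (limma adjusted p = 0.486). The erythroid marker Slc4a1 was at 48.6 and 6.7 FPKM in knockout and 436 and 285 FPKM in wild type (limma adjusted p = 0.166). Tfrc, the transferrin receptor, was at 314 and 187 FPKM in knockout and 531 and 397 FPKM in wild type (limma adjusted p = 0.313). Ahsp, the alpha globin chaperone, was at 1179 and 593 FPKM in knockout and 1778 and 1196 FPKM in wild type (limma adjusted p = 0.483). All 3 were lowest in the knockout library where Slc6a9 was lowest, and the part of these markers in the Slc6a9 values was not tested. Slc6a9 was the only tested member of its substrate group, since the other 6 carriers of proline and neutral amino acids in SLC6 stayed below 1 FPKM.

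Neither the heavy chain nor any of the 4 tested light chains passed the test, and 3 of those light chains had separate genotypes. Slc3a2 (gene ID 17254, chromosome 19, 8706882 to 8723369) encodes the CD98 heavy chain, the partner of the light chains expressed here. It stood at 66.0 and 50.6 FPKM in knockout and 54.1 and 42.98 FPKM in wild type, so the genotypes overlapped. Its log2 difference of 0.26 had a 95% interval of −0.20 to 0.71 (limma adjusted p = 0.708). That value rests on which libraries are used: it was 0.07 with knockout library 1 left out, 0.44 with knockout library 2 left out, 0.42 with wild-type library 1 left out and 0.09 with wild-type library 2 left out. Slc3a1, the heavy chain of the cystine and dibasic amino acid carrier of kidney and gut, was listed at 0.47 and 0.41 FPKM in knockout and at 0.27 in both wild-type libraries. It lies too low to test and shares 1731 bases with Prepl, which stood at 9.56 to 12 FPKM, and the sources used here do not say whether the libraries kept strand.

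The most abundant light chain was Slc7a5 (LAT1), the exchanger that brings in leucine and other large neutral amino acids. It stood at 41.2 and 25.3 FPKM in knockout and 35.5 and 25.7 FPKM in wild type, with the libraries numbered 2 below those numbered 1 in both genotypes. The log2 difference between genotypes was 0.10, with a 95% interval of −0.55 to 0.74. The 3 less abundant light chains were each higher in both knockout libraries, a pattern that 29.9% of all genes had. Slc7a6 (y+LAT2), which exchanges dibasic for neutral amino acids, stood at 10.7 and 9.06 FPKM in knockout and 8.13 and 6.57 FPKM in wild type, a ratio of means of 1.34. Slc7a7 (y+LAT1), its close relative, stood at 5.78 and 3.93 FPKM in knockout and 3.69 and 3.41 FPKM in wild type, a ratio of 1.37. Slc7a8 (LAT2), a neutral amino acid exchanger, stood at 4.86 and 3.06 FPKM in knockout and 2.77 and 2.28 FPKM in wild type, a ratio of 1.57. In Slc7a7 and Slc7a8 knockout library 1 stood well above the other 3 libraries, which lay close together. The log2 differences were 0.38 for Slc7a6, 0.35 for Slc7a7 and 0.47 for Slc7a8, with limma adjusted p-values of 0.469, 0.599 and 0.503. They were 0.28, 0.12 and 0.21 with knockout library 1 left out, and 0.49, 0.58 and 0.74 with knockout library 2 left out.

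Slc7a7 and Slc7a8 lie near each other on chromosome 14, at 54369442 to 54420068 and 54722215 to 54781886. Slc7a7 shares 228 bases with Oxa1l, which stood at 34.6 and 49.4 FPKM in knockout and 26.2 and 35.9 FPKM in wild type, and assembled transcripts are part of the Slc7a7 and Slc7a8 values. The cystine light chain Slc7a11 (xCT) feeds glutathione synthesis. It was low, at 0.19 and 0.1 FPKM in knockout and 0.18 and 0.15 FPKM in wild type. Slc7a9, the partner of Slc3a1, was at 0.03 and 0.06 FPKM in knockout and listed at 0 in wild type. Slc7a15 was at no more than 0.08 FPKM and Slc7a13 was listed at 0 throughout. The summed FPKM of the Slc3a2 partners Slc7a5, Slc7a6, Slc7a7, Slc7a8 and Slc7a11 was 0.95 and 0.82 times that of Slc3a2 in knockout, and 0.928 and 0.886 times in wild type. Heavy chain and light chain transcripts were thus at similar levels per length in all 4 libraries.

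Carriers of cationic amino acids belong to another branch of SLC7 and need no heavy chain. Slc7a1 (gene ID 11987, chromosome 5, 148327410 to 148399904) encodes CAT1, an arginine and lysine carrier that is also the receptor of ecotropic mouse retroviruses, Friend virus among them. It stood at 16.7 and 7.81 FPKM in knockout and 17.2 and 10.0 FPKM in wild type. Libraries of the same number were closer than libraries of the same genotype. The log2 difference between genotypes was −0.18, with a 95% interval of −1.10 to 0.73 (limma adjusted p = 0.915). It was −0.69 when knockout library 1 was left out (limma adjusted p = 0.0232, among the same 738 genes called). The sign turned, to 0.32 and 0.18, when knockout library 2 or wild-type library 1 was left out. Slc7a4, a relative whose transport activity is unsettled, was higher in both knockout libraries, at 7.58 and 5.65 FPKM against 5.32 and 4.55 FPKM in wild type (limma adjusted p = 0.555). Slc7a2, Slc7a3 and Slc7a14 were below 1 FPKM, the highest value being 0.33 FPKM for Slc7a14.

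The exchangers Slc1a5 and Slc1a4 differed between libraries of a genotype and little between genotypes. Slc1a5 (ASCT2, gene ID 20514, chromosome 7, 16781334 to 16798274) exchanges glutamine, alanine, serine and cysteine. It stood at 19.9 and 9.58 FPKM in knockout and 17.4 and 9.8 FPKM in wild type. Slc1a4 (ASCT1), which prefers alanine, serine and cysteine, stood at 8.62 and 6.03 FPKM in knockout and 8.77 and 5.97 FPKM in wild type. Library 2 was at 0.481 times library 1 for Slc1a5 in knockout and 0.563 times in wild type. For Slc1a4 these ratios were 0.7 in knockout and 0.681 in wild type. The intervals of the genotype difference were wide, −0.85 to 1.00 for Slc1a5 and −0.57 to 0.56 for Slc1a4 on the log2 scale. The 4 glutamate carriers of SLC1 measured here (Slc1a1, Slc1a2, Slc1a3 and Slc1a7) were at no more than 0.11 FPKM.

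Of the 24 tested carriers, 8 were lower in both libraries numbered 2 than in both numbered 1, beside 33% of all genes, and 2 were higher in both, beside 12.5%. The 8 were Slc1a4, Slc1a5, Slc3a2, Slc38a2, Slc43a1, Slc6a6, Slc7a1 and Slc7a5, and the 2 were Slc6a3 and Slc6a8. The share is that of the whole table, but Slc1a5 and Slc7a1 lay far out in it. Library 2 was under 0.6 times library 1 in both genotypes for these 2 carriers and for 1.86% of all genes; the bound of 0.6 was chosen after the values were seen. The labels do not say what the library numbers stand for, and their part in these values was not tested.

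**Figure D3:**
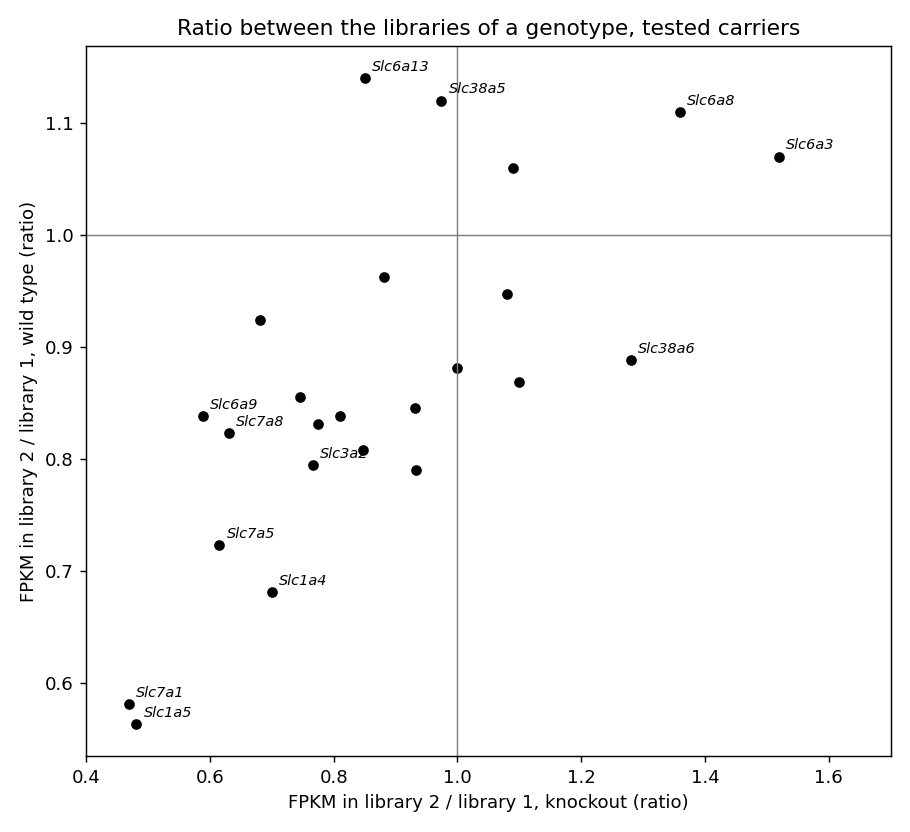
Ratio of FPKM in library 2 to library 1, in knockout on the horizontal axis and in wild type on the vertical axis, 1 point for each of the 24 tested carrier genes, with lines at a ratio of 1 and some genes named. Slc7a1 and Slc1a5 sit in the lower left corner, at 0.469 and 0.481 in knockout and 0.581 and 0.563 in wild type, and Slc6a3 and Slc6a8 are above 1 in both.

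Among the sodium-coupled carriers of SLC38, 6 of 9 were tested and 3 of those were higher in both knockout libraries, beside 29.9% of all genes. Slc38a5 (gene ID 209837, chromosome X, 8271381 to 8280179) stood at 311 and 303 FPKM in knockout and 256 and 286 FPKM in wild type, a ratio of means of 1.13. Slc38a10 (gene ID 72055, chromosome 11, 120103951 to 120151351), a little-studied member, stood at 56.7 and 61.9 FPKM in knockout and 46.8 and 49.5 FPKM in wild type. The Slc38a10 libraries agreed closely within each genotype, and assembled transcripts are part of its values. Its log2 difference was 0.29 with a 95% interval of −0.02 to 0.61 (limma adjusted p = 0.478). With median-centred values the Slc38a5 genotypes overlapped, while those of Slc38a10 did not. Slc38a7, a glutamine exporter of the lysosome, stood at 3.27 and 3.05 FPKM in knockout and 2.62 and 2.07 FPKM in wild type. Slc38a2 (SNAT2), the system A carrier that cells raise when amino acids run short, was abundant and nearly level, at 75.1 and 70.0 FPKM in knockout and 80.4 and 67.9 FPKM in wild type. Its 95% interval was −0.38 to 0.32 on the log2 scale. Slc38a9, the arginine sensor of the lysosome, ranged from 3.01 to 3.3 FPKM in knockout and from 2.72 to 3.13 FPKM in wild type. Slc38a6 overlapped too, at 8.05 and 10.3 FPKM in knockout and 10.8 and 9.6 FPKM in wild type. With median-centred values Slc38a2 and Slc38a6 each lay below wild type in both knockout libraries. Slc38a1 and Slc38a3 were at no more than 0.02 FPKM and Slc38a8 was listed at 0.

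The SLC43 carriers, which work without an ion gradient, differed in direction, and none passed the test. Slc43a3 (gene ID 58207, chromosome 2, 84936545 to 84958509), which carries purine nucleobases rather than amino acids, stood at 126 and 98.0 FPKM in knockout and 163 and 136 FPKM in wild type. Both knockout libraries lay below both wild-type libraries, with a ratio of means of 0.751. The log2 difference was −0.42 with a 95% interval of −0.85 to 0.02 (limma adjusted p = 0.469). Leaving out knockout library 1 gave −0.60 (limma adjusted p = 0.0495), leaving out knockout library 2 gave −0.23, and leaving out wild-type library 1 gave −0.28. Its neighbour Slc43a1 (LAT3, chromosome 2, 84838855 to 84863586), a carrier of leucine and other branched-chain amino acids, overlapped between genotypes, at 141 and 114 FPKM in knockout and 122 and 102 FPKM in wild type. Slc43a2 (LAT4), with similar substrates, was higher in both knockout libraries, at 6.42 and 6.91 FPKM against 5.89 and 5.58 FPKM in wild type (limma adjusted p = 0.716).

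The remaining tested carriers differed little. Slc6a6, the taurine carrier, stood at 29.1 and 25.6 FPKM in knockout and 27.6 and 26.5 FPKM in wild type. Slc6a8, the creatine carrier, stood at 14.9 and 20.3 FPKM in knockout and 15.2 and 16.9 FPKM in wild type. For both the genotypes overlapped. Slc36a1 (PAT1), a proton-coupled carrier of the lysosome, was higher in both knockout libraries, at 4.35 and 4.36 FPKM against 3.69 and 3.25 FPKM in wild type, a ratio of means of 1.26 (limma adjusted p = 0.604). Slc6a13, a GABA and taurine carrier, was lower in both, at 1.73 and 1.47 FPKM against 1.75 and 1.99 FPKM in wild type (limma adjusted p = 0.845). The dopamine carrier gene Slc6a3 was detected at 2.47 and 3.75 FPKM in knockout and 2.43 and 2.61 FPKM in wild type, from a gene model that includes an assembled transcript. Slc6a4, the serotonin carrier, was at no more than 0.02 FPKM. Slc36a2, Slc36a3 and Slc6a20b were listed at 0 in every library, as were Slc38a8 and Slc7a13.

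The promoter windows of the carriers were searched for 2 short motifs. The first was the core of the amino acid response element, TGATGNAA, which Atf4 and its C/EBP partners bind when amino acids run short, and the second was the GATA motif AGATAA. Both strands were read; neither motif contains the other. RefSeq windows of assembly GRCm38.p6, from 250 bases before to 50 after a start, matched 18 of the 24 tested carriers (29 windows). The first motif was in windows of 2 carriers, Slc1a4 and Slc7a7, and in 10.3% of the 29 windows beside 3.97% of all 32851 windows. Among the tested carriers the second was in windows of Slc7a7 alone, 6.9% of the 29 windows beside 11.2% of all. Windows of Slc7a7 overlap, so the same letters count more than once. The windows below are 1 for each of the 2 carriers with the first motif (a second Slc7a7 window with it overlaps the one shown) and the first window of Slc6a9, shown because Slc6a9 had the largest difference; they are written 5′ to 3′ on the gene's strand, with matches to TGATGNAA or its reverse complement in capitals.
Slc1a4, chr11:20332664-20332963, minus strand: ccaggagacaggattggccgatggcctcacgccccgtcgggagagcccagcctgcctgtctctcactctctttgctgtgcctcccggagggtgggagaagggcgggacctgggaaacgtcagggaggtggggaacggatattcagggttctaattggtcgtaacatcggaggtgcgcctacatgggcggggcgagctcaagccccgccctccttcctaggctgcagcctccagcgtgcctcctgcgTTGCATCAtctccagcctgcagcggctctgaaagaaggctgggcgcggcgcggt
Slc7a7, chr14:54417895-54418194, minus strand: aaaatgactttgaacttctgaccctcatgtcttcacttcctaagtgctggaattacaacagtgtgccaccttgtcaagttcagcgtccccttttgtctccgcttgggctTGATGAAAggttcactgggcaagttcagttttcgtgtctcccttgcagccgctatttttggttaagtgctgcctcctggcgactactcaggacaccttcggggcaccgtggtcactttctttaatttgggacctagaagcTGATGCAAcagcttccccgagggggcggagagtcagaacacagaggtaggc
Slc6a9, chr4:117835008-117835307, plus strand: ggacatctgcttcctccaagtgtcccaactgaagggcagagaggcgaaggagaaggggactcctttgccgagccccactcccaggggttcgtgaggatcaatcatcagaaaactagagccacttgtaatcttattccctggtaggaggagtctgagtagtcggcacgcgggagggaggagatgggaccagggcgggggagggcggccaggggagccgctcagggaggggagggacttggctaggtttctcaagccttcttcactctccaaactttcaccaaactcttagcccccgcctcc

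In Slc1a4 the match is on the reverse strand and begins 4 bases before the start, so that it spans it. In the Slc7a7 window 1 match begins 141 bases and the other 1 base before that start. The 3 Slc6a9 windows hold neither motif. Slc1a4 was level between genotypes and for Slc7a7 both knockout values were the higher ones, with no pass in the test. A match of letters does not show that a factor binds there.

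Other genes of amino acid supply and sensing were compared in the same fit, from a list of 64 genes, 57 of them tested. None passed (limma, adjusted p under 0.05 over all genes), and 6 had an unadjusted p under 0.05, of which 5 were higher and 1 lower in knockout, beside 11.4% of all genes. The share is near that of all genes, and the 6 are described below by their values. For 14 of the 57 each knockout library exceeded each wild-type library, and for 3 the reverse held, beside the 29.9% and 10.8% of all genes. The median log2 difference was 0.10, beside 0.07 over all genes.

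Sesn2, a sestrin that senses leucine and restrains mTORC1, was at 31.9 and 34.1 FPKM in knockout and 17.1 and 17.3 FPKM in wild type. The libraries of each genotype were nearly equal, and the log2 difference was 0.90 with a standard error of 0.13 (limma adjusted p = 0.101). Nupr1, a stress-induced chromatin protein and Atf4 target, stood at 135 and 104 FPKM in knockout and 74.0 and 53.0 FPKM in wild type (limma adjusted p = 0.23). Psat1, a serine synthesis enzyme, stood at 91.6 and 61.9 FPKM in knockout and 56.8 and 43.9 FPKM in wild type (limma adjusted p = 0.409). In the list of Gcn2, Atf4 and targets, 6 of 16 genes had both knockout values above both wild-type values, beside 29.9% of all genes. The reverse held for 0, beside 10.8% of all genes. Besides Nupr1 and Psat1 the 6 were Psph, Chac1, Eif2ak4 and Cebpb, with ratios of means of 1.35, 1.41, 1.28 and 1.14. Atf4 itself was at 99.9 and 78.5 FPKM in knockout and 99.3 and 85.8 FPKM in wild type. Asns, the asparagine synthetase, was at 125 and 106 FPKM in knockout and 122 and 90.0 FPKM in wild type. For Atf4 and Asns the genotypes overlapped.

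Slc16a10 (TAT1), a carrier of aromatic amino acids from another family, had the lowest log2 difference of the list, at 21.7 and 24.5 FPKM in knockout and 31.0 and 34.1 FPKM in wild type (log2 difference −0.48, limma adjusted p = 0.297). Nedd4l, a ubiquitin ligase known to act on membrane carriers, stood at 5.34 and 5.62 FPKM in knockout and 3.89 and 4.24 FPKM in wild type (limma adjusted p = 0.434). Wdr59, a subunit of the GATOR2 complex that relays amino acid levels to mTORC1, stood at 4.4 and 4.51 FPKM in knockout and 3.42 and 3 FPKM in wild type (limma adjusted p = 0.43). For each of these 3 genes the genotypes did not overlap. In the list of lysosomal sensing and mTORC1 genes, 19 of 30 were lower in both libraries numbered 2, beside 33% of all genes, and 1 was higher in both. By genotype, 5 of the 30 were higher in both knockout libraries and 2 were lower in both, beside 29.9% and 10.8%. In the list of Gcn2 and Atf4, 7 of 16 genes were lower in both libraries numbered 2, beside 33% of all genes. Another 2 were higher in both, beside 12.5%. Among the 7 was Shmt2, the mitochondrial enzyme that makes glycine from serine. It stood at 41.2 and 19.4 FPKM in knockout and 34.0 and 23.0 FPKM in wild type.

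**Figure D4:**
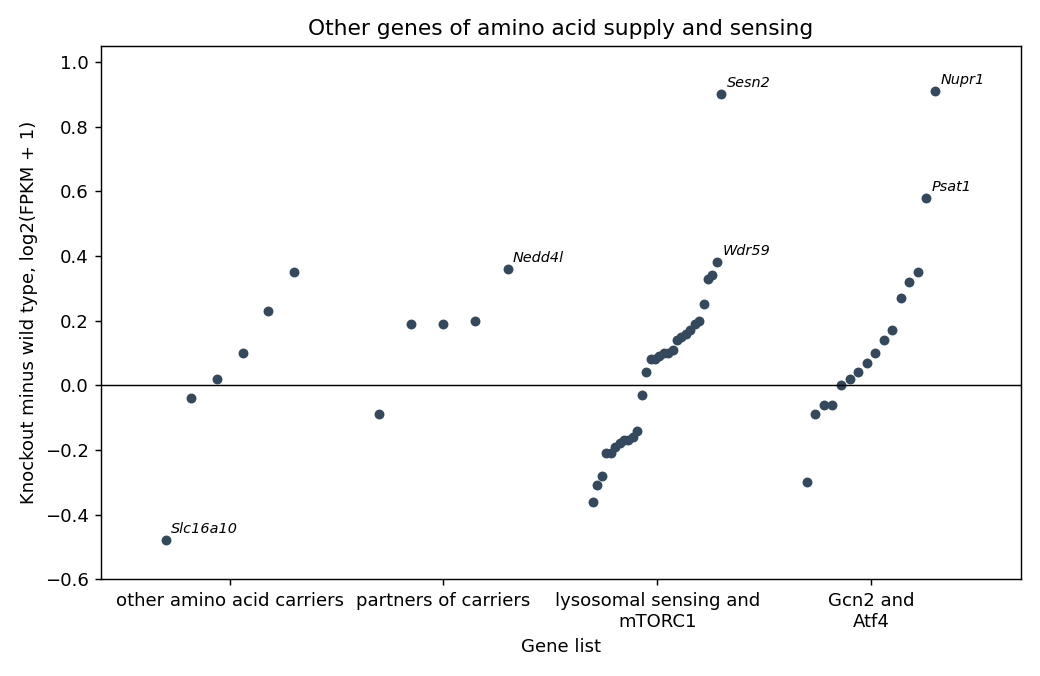
Knockout minus wild type on the log2(FPKM + 1) scale for the 57 tested genes of amino acid supply and sensing outside the carrier families, 1 point a gene in 4 lists, sorted within each list. The 6 genes with an unadjusted p under 0.05 are named; Nupr1 and Sesn2 stand highest at 0.91 and 0.90 and Slc16a10 lowest at −0.48, and none passed after adjustment.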

How the data were processed

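RNA depleted of ribosomal RNA was sequenced from 2 knockout and 2 wild type samples of DS19 cells, grouped and numbered by title. The authors deposited 1 table for all libraries. No unit stands in its header; the deposited values were taken as FPKM, because multiplied by transcript length (GENCODE M21) each library summed to between 1.024e+09 and 1.037e+09. TopHat2 and mm10 are named in the submitters' processing notes; which program computed the values, and whether strand was kept, is not stated there or in the labels. Fragment depth was estimated from steps in low values of short genes with 1 transcript and is approximate; no counts were used. Gene IDs matched RefSeq (GRCm38.p6) for 16316 of 17393 genes. Assembled transcripts are part of the values of Slc43a3, Slc43a1, Slc38a10, Slc6a8, Slc38a6, Slc7a4, Slc7a7, Slc7a8, Slc38a9, Slc6a3 and Slc38a7.

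The 10670 genes that reached 1 FPKM in 2 or more libraries were tested on log2(FPKM + 1), which understates the change of low genes, with limma 3.58.1 in R 4.3.3 (mean-variance trend, no covariates, Benjamini-Hochberg). Intervals are 95%, unadjusted. The procedure was checked on simulated data, drawn with the same spread for every gene and no effect of library number. Carriers given with every library's value were the 12 most abundant, the heavy and light chains, and up to 8 in each direction among those whose genotypes did not overlap; the other tested carriers were added after their values were seen. The members, lists and rules were chosen with earlier results of these data known. Alternatives were 3 other scalings, 2 filters, no trend, a pseudocount of 0.1, a block for library number and leaving out each library.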

Additional observations from a re-analysis of the deposited data

How the results depend on the processing

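The count of carriers past the test was 0 under median-centred values, quantile normalization, globin removal with rescaled totals, low genes kept in, a floor of 5 FPKM on the mean, no mean-variance trend and a pseudocount of 0.1. With the library number as a replicate block, 5 carriers passed (Slc38a10, Slc7a6 and Slc7a8 higher, Slc43a3 and Slc6a9 lower), as did 10 genes of the wider list and 1863 of all genes. That fit leaves 1 residual degree of freedom a gene. Over genes, library 1 minus library 2 correlated at 0.606 between knockout and wild type, but the numbers are only shared labels here. Beyond these counts and directions, the report gives no single-gene value from this block. All genes past the test numbered 10, but 0 without the filter and 2 at a mean of at least 5 FPKM. Leaving out 1 library in turn gave 0 to 3 carriers, 0 to 5 genes of the wider list and 3 to 738 of all genes, where the lone library of a genotype is assumed to vary like the others; the 3 carriers, without knockout library 1, were Slc6a9, Slc43a3 and Slc7a1.

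Of the 20 carriers followed singly, those that changed sign had values near 0 or differed between library numbers. Slc6a6 turned to −0.06 with median-centred values, −0.07 with quantile normalization, −0.06 without globins, and, with a library left out, −0.01 (wild-type library 2) and −0.07 (knockout library 1). Slc1a5 turned to −0.02 with quantile normalization and ran between −0.41 and 0.57 over the libraries left out, at −0.31 without wild-type library 2 and lowest without knockout library 1. Slc7a5 ran between −0.24, without knockout library 1, and 0.44, and was −0.13 without wild-type library 2. Slc7a1 ran between −0.69 and 0.32, and was 0.18 without wild-type library 1 and highest when knockout library 2 was left out. Slc38a2 ran between −0.15 and 0.09, highest without wild-type library 1, and was 0.02 when knockout library 2 was left out. Slc6a8 was −0.10 when knockout library 2 was left out. The cause was not tested. The median over the carriers ran from 0.01 without the filter to 0.23 when wild-type library 1 or knockout library 2 was left out. Depth could be estimated only roughly, so no counting interval was given.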
